A study of Mus musculus with 101 samples.

Results

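The 7 genes described here, Trp53bp1, Rif1, Mad2l2, Shld1, Shld2, Helb and Dynll1, are brakes on DNA end resection whose absence is known to restore recombination in cells that lack Brca1. They were chosen by symbol for this known role, and all 7 were found among the 43513 gene symbols of the copy-number tables. Their copy number was examined in 98 mouse mammary tumours, with 3 spleens as unaltered tissue. By their labels, 31 tumours were KB1P, 25 KB2P, 24 KB1(L1363P)P and 18 KP. As these conditional models are commonly named, Cre recombinase driven by a keratin promoter removes Trp53 in all 4, so that KP has lost Trp53 alone, KB1P Brca1 as well and KB2P Brca2 as well. KB1(L1363P)P carries a Brca1 missense variant in place of a Brca1 deletion. The labels give neither the ages of the mice nor the full list of alleles, and whether each tumour came from its own mouse is not stated. The study compared tumours with the variant, by histology, with the other 3 models.

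When both DNA strands break, Trp53bp1 (53BP1) binds the chromatin around the break and recruits Rif1, which in turn brings shieldin, a complex of Shld1, Shld2, Shld3 and Mad2l2 (Rev7). Shieldin covers single-stranded ends and, through polymerase alpha, fills them in, which favours end joining over homologous recombination. Helb is a helicase that limits long-range resection, and Dynll1 restrains the nuclease Mre11 and helps Trp53bp1 to form multimers. In Brca1-deficient mouse mammary tumours treated with PARP inhibitors, loss of members of this pathway is a known route to resistance. Shld3 had no row in the tables and is not analysed here.

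Each gene had 3 values in each sample: a log2 ratio, a segment value (the log2 ratio after segmentation, 0 being the neutral level) and a copy score, a whole number with 2 as the neutral state. For the 7 members a copy score below 2, here called a loss, went with a segment value of about -0.42 or lower, and a score above 2, called a gain, with about 0.32 or higher. The read depth behind the values is unknown. In the 3 spleens every member had a copy score of 2 and segment values of at most 0.0027 in size. The share of DNA from normal cells in each tumour was not given, so the same segment value can stand for loss in every cell or for a deeper loss in fewer cells. Histology was tangled with genotype: 29 of 31 KB1P and all 25 KB2P tumours were adenocarcinomas, whereas KB1(L1363P)P held 12 sarcomatoid tumours, 9 carcinosarcomas and 3 adenocarcinomas, and KP held 10, 2 and 6. Library series were tangled with genotype as well. Of the KB1P tumours 10 were in series 5289, beside 20 of KB1(L1363P)P and 3 of KP. The remaining 4 of KB1(L1363P)P were in series 5490, with 5 of KP. All series with KB2P tumours were of that genotype alone, so for KB2P series and genotype cannot be told apart. The same holds for the other 21 KB1P tumours, in series 2766, 2956, 3081 and D, and for the 10 KP tumours of series 5750. KB2P replicates 10 and 12 had segment profiles that correlated at 0.99 although they belong to different series, and KB1P replicate 8 carries the other Brca1 model's name in its description. Loss calls at the engineered genes did not follow genotype: Brca1 had a loss call in 3 of 31 KB1P and 4 of 25 KB2P tumours, and Trp53 in 0 of 18 KP tumours. These calls therefore do not serve as a check of the genotype labels.

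By the copy score, losses of the 7 genes were common in KB1P and KB2P tumours and rare in KP and KB1(L1363P)P tumours taken over all histologies. At least 1 of the 7 was lost in 22 of 31 KB1P tumours (71.0%, exact Clopper-Pearson 95% interval 52.0% to 85.8%) and in 17 of 25 KB2P tumours (68.0%, 46.5% to 85.1%). The same held for 4 of 24 KB1(L1363P)P tumours (16.7%, 4.74% to 37.4%) and 2 of 18 KP tumours (11.1%, 1.38% to 34.7%). These intervals cover counting error only. Among adenocarcinomas alone the counts were 22 of 29 in KB1P, 17 of 25 in KB2P, 3 of 3 in KB1(L1363P)P and 1 of 6 in KP. None of the 12 sarcomatoid tumours of KB1(L1363P)P and the 10 of KP had a loss. The shares over all tumours thus mix genotype with histology. With milder call limits the counts of KP and KB1(L1363P)P rose, as given in the closing section. In KB1P, 11 tumours had lost 2 of the genes, 4 had lost 3, 1 had lost 4 and replicate 24 had lost 5 (Trp53bp1, Mad2l2, Shld1, Shld2 and Helb). The 4 genotypes also differed in how much of the genome was lost at all. Over the 7 genes, 22.1% of gene-by-tumour calls were losses in KB1P against 18.3% over all genes, 14.9% against 19.1% in KB2P, 2.98% against 4.94% in KB1(L1363P)P and 1.59% against 5.29% in KP. Gains of the 7 genes made up 13.8% of calls in KB1P and 16.6% in KB2P, against 18.2% and 17.9% over all genes. In KP the shares were 1.59% and 2.44%, and in KB1(L1363P)P none of the 168 member calls was a gain, beside 2.08% over all genes. The map of copy calls shows these losses tumour by tumour.

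**Figure D1:**
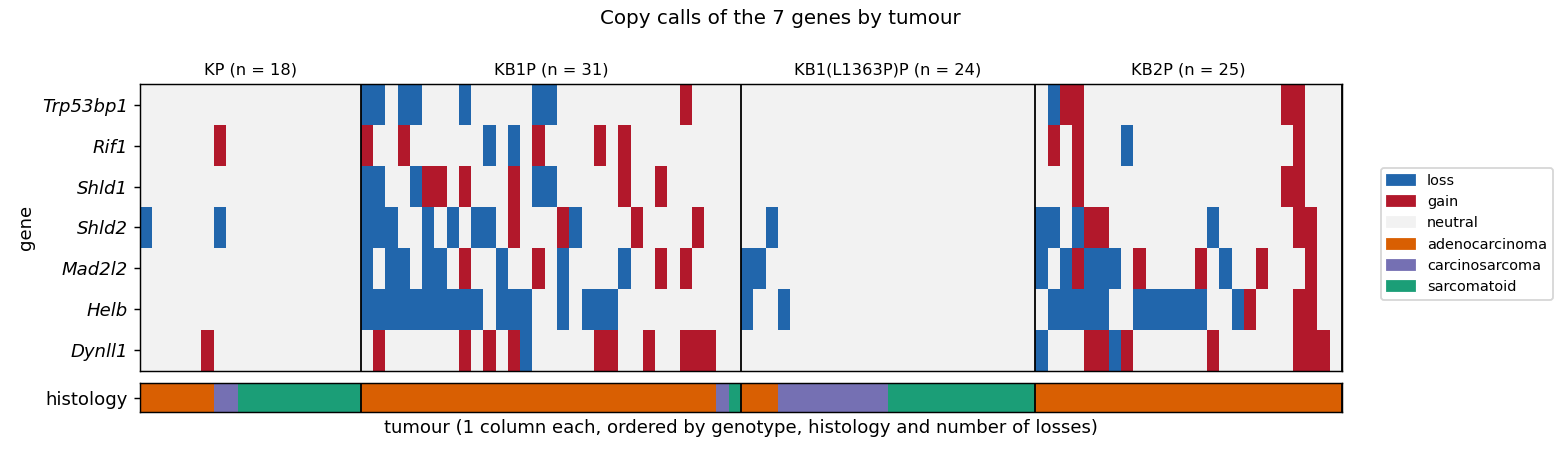
Copy calls of the 7 genes (rows) in 98 tumours (columns), with the genotype above and the histology below. Blue marks a loss, red a gain. Losses and gains concentrate in the KB1P and KB2P columns, and the Helb row holds the most losses (31). The sarcomatoid tumours of KB1(L1363P)P (12), KP (10) and KB1P (1) hold no loss.

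All 81 losses had a copy score of 1. A score of 0, which needs a segment value of about -2.0 by the rounding, occurred at none of the 7 genes, although 115 genes (0.264%) had such a score in some KB1P tumour and 250 (0.575%) in some KB2P tumour. For a single gene, 0 of 31 KB1P tumours allows a share of up to 9.68%. The lowest member value of the series was -1.05, at Helb in KB1P replicate 20. Of the 81 losses 15 lay within 0.05 of the call limit, and another 19 values lay within 0.05 on its other side, so the counts move with the limit.

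Trp53bp1 (chromosome 2, 121194835 to 121296354, GRCm38.p6), the chromatin reader at the top of the pathway, was lost in 7 of 31 KB1P tumours (22.6%, 9.59% to 41.1%), in 1 of 25 KB2P tumours and in none of the 18 KP and 24 KB1(L1363P)P tumours. Its segment values ran from -0.50 through a median of 0.00 to 0.49 in KB1P and from -0.51 through 0.01 to 1.09 in KB2P. In KP they ran from -0.23 through -0.04 to 0.28 and in KB1(L1363P)P from -0.24 through -0.02 to 0.15. The groups overlapped. The 7 KB1P losses lay between -0.50 and -0.42, where the upper end is the call limit itself. Fisher's exact test on loss calls gave p = 0.0377 (adjusted p = 0.149 over all genes) for KB1P against KP, p = 0.0147 (adjusted p = 0.106) for KB1(L1363P)P against KB1P and p = 0.0631 (adjusted p = 0.727) for KB1P against KB2P. None passed the threshold of an adjusted p of 0.05. In KB1P 40.7% of all genes were lost in at least 7 tumours, so a count of 7 is common there. Losses occurred in 2 of the 10 KB1P tumours of library series 5289 and in 5 of the 21 others. The highest value was 1.09 in KB2P replicate 1, a gain to copy score 4 over 4.64 Mb.

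Rif1 (chromosome 2, 52072815 to 52126769), the effector that Trp53bp1 recruits, was lost less often than it was gained. Loss calls numbered 2 in KB1P (replicates 13 and 19) and 1 in KB2P (replicate 2), and gains numbered 5 in KB1P, 3 in KB2P and 1 in KP. The values spanned -0.47 to 0.41 in KB1P and -0.70 to 0.38 in KB2P, with medians of 0.00 and 0.01. In KB1(L1363P)P they lay between -0.35 and 0.15 with no call, and in KP between -0.23 and 0.32. Within KB1P, 4 of the 5 gains were in the 10 tumours titled KB1PM, whose title the labels do not explain. In those 10 the mean was 0.16 ± 0.19 (SD), against -0.07 ± 0.10 (SD) in the 10 tumours of series 5289.

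Among the shieldin genes, Shld1 (chromosome 2, 132686931 to 132751055) encodes a small subunit that binds Shld2. It was lost in 5 of 31 KB1P tumours (16.1%, 5.45% to 33.7%) and in no tumour of the other genotypes, and it was gained in 6 KB1P and 3 KB2P tumours. Its values ran from -0.50 through 0.00 to 0.62 in KB1P and from -0.37 through 0.01 to 0.37 in KB2P. Fisher's exact test on losses gave p = 0.0584 (adjusted p = 0.727) for KB1P against KB2P and p = 0.143 (adjusted p = 0.366) for KB1P against KP.

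Shld2 (chromosome 14, 34236948 to 34310651), the subunit that binds single-stranded DNA, was lost in all 4 genotypes: in 8 of 31 KB1P tumours, 4 of 25 KB2P tumours, 1 of 24 KB1(L1363P)P tumours and 2 of 18 KP tumours. Its lowest values were -0.66 in KB1P, -0.87 in KB2P, -0.86 in KB1(L1363P)P and -0.44 in KP, with group medians between -0.06 and -0.02. KB1P tumours of series 5289 held 5 of the 8 losses (mean -0.24 ± 0.35, SD, n = 10), and the other 21 KB1P tumours held 3 (mean 0.02 ± 0.29, SD). In KB2P all 4 losses lay among the 20 tumours of series 3196 and 3 of the 4 gains among the 5 of series 3499.

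Mad2l2 (chromosome 4, 148130158 to 148145704), the subunit that joins Shld3 to Shld2, was lost in 8 of 31 KB1P tumours (25.8%, 11.9% to 44.6%), 6 of 25 KB2P tumours (24.0%, 9.36% to 45.1%), 2 of 24 KB1(L1363P)P tumours and none of 18 KP tumours. The values ran from -0.96 through 0.00 to 0.64 in KB1P and from -0.85 through -0.01 to 0.64 in KB2P, with gains in 4 and 5 tumours. The 2 KP values of -0.41 lay just above the call limit. Fisher's exact test on losses gave adjusted p = 0.117 for KB1P against KP (p = 0.0198) and adjusted p = 0.152 for KB2P against KP (p = 0.0321). A loss of at least 1 of the 3 shieldin genes was present in 16 of 31 KB1P tumours (51.6%, 33.1% to 69.8%) and 9 of 25 KB2P tumours (36.0%, 18.0% to 57.5%). The count was 3 of 24 in KB1(L1363P)P and 2 of 18 in KP. Single losses of this frequency were common over all genes. In KB1P 31.7% of all genes were lost at least as often as Mad2l2 or Shld2, and 53.2% at least as often as Shld1. In KB2P the shares were 37.2% for Mad2l2 and 56.5% for Shld2. No matching share over all genes was computed for a loss of at least 1 of 3 genes.

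Helb (chromosome 10, 120083608 to 120113010) was lost most often of the 7. By the copy score it was the one member whose losses passed a test between genotypes. Loss calls were present in 17 of 31 KB1P tumours (54.8%, 36.0% to 72.7%) and 12 of 25 KB2P tumours (48.0%, 27.8% to 68.7%), against 2 of 24 KB1(L1363P)P tumours (8.33%, 1.03% to 27.0%) and 0 of 18 KP tumours, which allows a share of up to 16.7%. Only 2.28% of all genes were lost in at least 17 KB1P tumours, and 8.00% in at least 12 KB2P tumours. The segment values of KB1P ran from -1.05 through a median of -0.46 to 0.02, with no gain. In KB2P they ran from -0.87 through -0.41 to 2.43, in KB1(L1363P)P from -0.91 through -0.06 to 0.23 and in KP from -0.24 through -0.02 to 0.12. As no KP tumour had a loss call, the 17 KB1P losses lay below every KP value by the call rule itself. A value of -0.2 or lower was present in 21 of 31 KB1P tumours and 1 of 18 KP tumours. KB1P tumours without a loss call thus included lowered values as well as values in the range of KP. Losses were found in 6 of 10 KB1P tumours of series 5289 and 11 of the 21 others, and in 10 of 20 and 2 of 5 tumours of the KB2P series.

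Fisher's exact test called the Helb loss for KB1P against KP (adjusted p = 0.0145; 4.68% of all genes called), KB2P against KP (adjusted p = 0.0152; 3.20% of all genes) and KB1(L1363P)P against KB1P (adjusted p = 0.0392; 3.63% of all genes). For KB1(L1363P)P against KB2P the adjusted p was 0.0585, with 5.36% of all genes called. No other member was called by loss in any of these pairs. In the 2 remaining pairs, KB1(L1363P)P against KP and KB1P against KB2P, Fisher's test called 0 of the 7 genes and 0% of all genes, and 0 of the 7 had an unadjusted p under 0.05. These calls depended on the call limit. With loss set at a segment value of -0.1 or lower, Helb was lost in 21 of 31 KB1P, 16 of 25 KB2P and 4 of 18 KP tumours, and Fisher's adjusted p was 0.0547 for KB1P against KP and 0.108 for KB2P against KP. For KB1(L1363P)P against KB1P it was 0.0552 at -0.2 and 0.114 at -0.1. The calls were kept when KB1PM tumours and the one with conflicting labels were left out, and without 1 of the near-identical KB2P tumours, and lost in adenocarcinomas alone and in series 5289 alone. Among adenocarcinomas Helb was lost in 17 of 29 KB1P, 12 of 25 KB2P, 1 of 3 KB1(L1363P)P and 0 of 6 KP tumours, and Fisher's adjusted p was 0.944 for KB1P against KP with no gene of the genome called. Within series 5289 the counts were 6 of 10 in KB1P, 1 of 20 in KB1(L1363P)P and 0 of 3 in KP, with an adjusted p of 0.0843 for KB1(L1363P)P against KB1P.

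On segment values limma gave the same order for Helb. The mean was -0.40 in KB1P and -0.03 in KP, a difference of -0.36 (SE 0.11, adjusted p = 0.0253), and Helb was the 1 member of 7 called in this contrast, where 13.5% of all genes were called and 4.48% were called lower. For KB2P against KP the difference was -0.18 (SE 0.12, adjusted p = 0.381) and for KB1(L1363P)P against KB1P it was 0.26 (SE 0.11, adjusted p = 0.0792). A single tumour weighed on both: KB2P replicate 8, with a Helb segment value of 2.43 and a copy score of 11, widened the spread that all contrasts share. Without it, an alternative chosen after the data were seen, the differences were -0.36 (SE 0.08, adjusted p = 0.00157), -0.29 (SE 0.09, adjusted p = 0.0277) and 0.26 (SE 0.08, adjusted p = 0.0155), so that limma then called Helb in all 3. Within series 5289, KB1(L1363P)P exceeded KB1P by 0.31 (adjusted p = 0.0207; 9.76% of all genes called), while KB1P against the 3 KP tumours gave -0.30 (adjusted p = 0.269). With library series as a term in the model KB1P minus KP was -0.40 (adjusted p = 0.239). In that model the KB1P side rests on the tumours of series 5289, as the other series with KB1P tumours held no other genotype.

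Dynll1 (chromosome 5, 115297110 to 115300990), the dynein light chain, was gained far more often than it was lost. Gains numbered 10 of 31 in KB1P (32.3%, 16.7% to 51.4%), 7 of 25 in KB2P (28%, 12.1% to 49.4%), 1 of 18 in KP and 0 of 24 in KB1(L1363P)P, which allows a share of up to 12.5%. Losses numbered 1, 2, 0 and 0. Its values ran from -0.59 through 0.03 to 0.82 in KB1P, from -0.83 through 0.04 to 1.63 in KB2P, from -0.24 through 0.04 to 0.44 in KP and from -0.39 through 0.00 to 0.28 in KB1(L1363P)P. The gain was called by Fisher's exact test for KB1(L1363P)P against KB1P (adjusted p = 0.0202), a pair in which 21.2% of all genes were called, and was the 1 member called by gain in any pair. Within series 5289 the gain counts were 2 of 10 in KB1P and 0 of 20 in KB1(L1363P)P (adjusted p = 0.557). Among adenocarcinomas they were 10 of 29 in KB1P and 0 of 3 in KB1(L1363P)P (adjusted p = 1). An absence of gains in 3 tumours cannot be told apart from the KB1P share. The 2 highest values, 1.63 and 1.51 with copy scores of 6, belonged to KB2P replicates 10 and 12, the pair with near-identical profiles. For KB1P against KP and for KB1(L1363P)P against KB2P, Fisher's test on gains gave 1 member each with an unadjusted p under 0.05, Dynll1 in both, and called none (12.4% and 11.4% of all genes called). For KB2P against KP, KB1(L1363P)P against KP and KB1P against KB2P it called 0 members, none with an unadjusted p under 0.05, against 7.62%, 0% and 0.00919% of all genes.

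**Figure D2:**
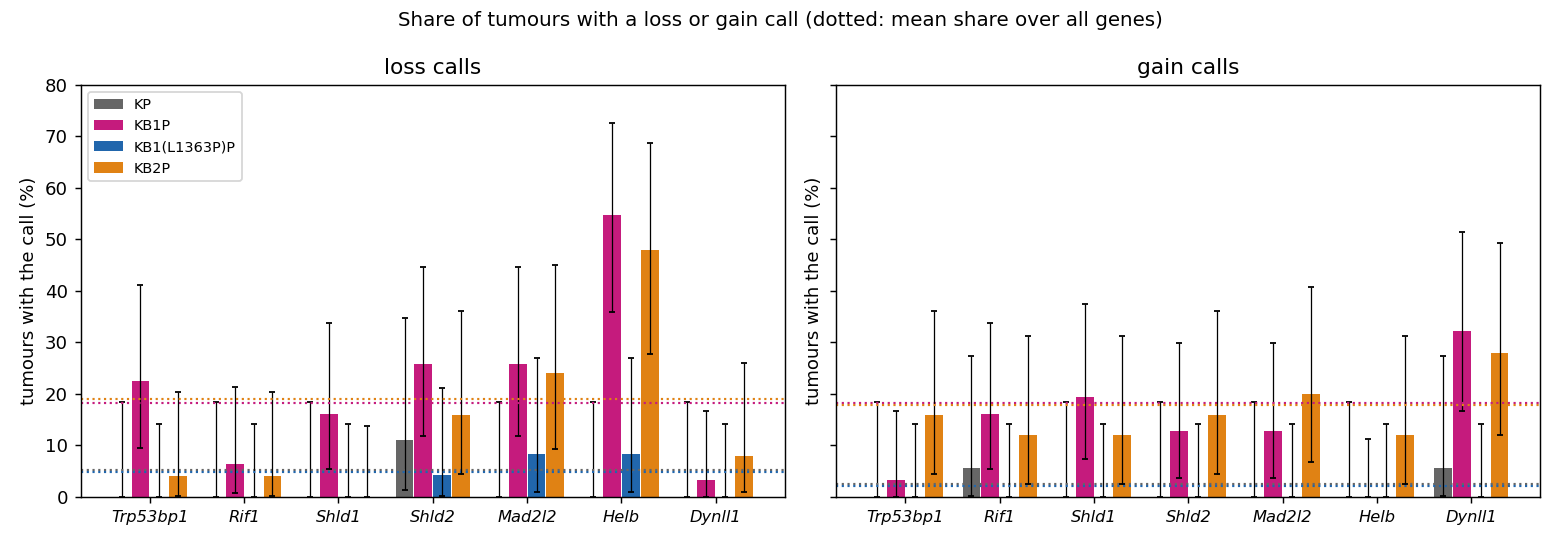
Share of tumours with a loss call (left) or gain call (right) at each gene, by genotype; bars are percentages of tumours with exact 95% intervals, and dotted lines give the mean share over all genes in the genotype of that colour. Helb losses reach 54.8% in KB1P and 48.0% in KB2P, and Dynll1 gains 32.3% and 28%.

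**Figure D3:**
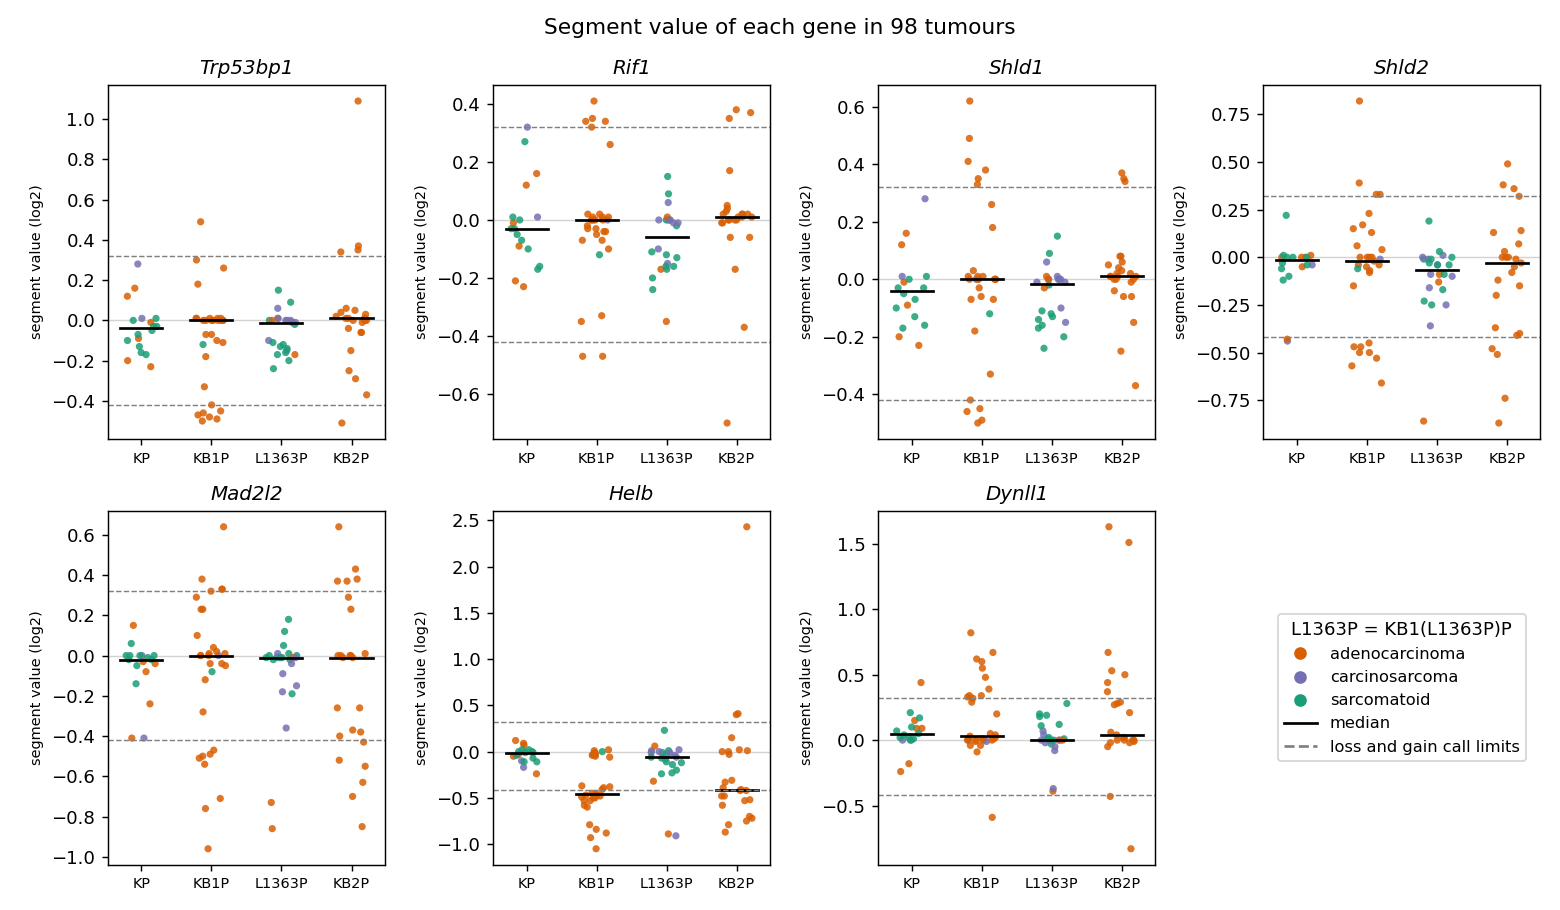
Segment value (log2) of each gene in 98 tumours by genotype, coloured by histology; black bars are medians and dashed lines the limits of a loss or gain call. The medians of KB1P (-0.46) and KB2P (-0.41) at Helb lie apart from 0, while for the other 6 genes every genotype's median lies within 0.06 of it.

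Over all tumours limma called none of the remaining 6 genes between genotypes. The mean of Dynll1 still ranged from 0.01 in KB1(L1363P)P to 0.22 in KB2P. Limma called 0 of the 7 members for KB2P minus KP (12.0% of all genes called), KB1(L1363P)P minus KP (0% of all genes), KB1P minus KB2P (1.36%), KB1(L1363P)P minus KB1P (13.5%) and KB1(L1363P)P minus KB2P (12.8%). An unadjusted p under 0.05 was seen for 0, 0, 1, 1 and 1 of the 7 in these contrasts. These were Trp53bp1 for KB1P minus KB2P (-0.12, SE 0.06, adjusted p = 0.30), Helb for KB1(L1363P)P minus KB1P and Dynll1 for KB1(L1363P)P minus KB2P (-0.21, SE 0.09, adjusted p = 0.121). For KB1(L1363P)P minus KP the member with the largest difference was Helb at -0.10 (95% interval -0.34 to 0.14), and for Trp53bp1 the interval was -0.16 to 0.12. The median difference of the 7 members was -0.01 for KB1P minus KP and -0.05 for KB1(L1363P)P minus KB1P, beside 0.04 and -0.05 over all genes. A mean over tumours hides losses and gains that cancel, as in Shld1 and Mad2l2 of KB1P.

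Among adenocarcinomas alone, the histology that all 4 genotypes share, limma called 0 of the 7 members in the 6 contrasts, where 1.03% (KB1P minus KP), 0.0529% (KB2P minus KP), 0.138% (KB1P minus KB2P) and 0% (the 3 contrasts with KB1(L1363P)P) of all genes were called. Helb in KB1P minus KP was the 1 case with an unadjusted p under 0.05 (difference -0.42, SE 0.20, p = 0.0454, adjusted p = 0.554). The 3 KB1(L1363P)P adenocarcinomas had a mean of -0.53 ± 0.46 (SD) at Mad2l2, against -0.09 ± 0.39 (SD, n = 29) in KB1P adenocarcinomas, a difference of -0.44 (SE 0.23, adjusted p = 0.668).

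Within KB1(L1363P)P the losses followed histology. All 3 adenocarcinomas had lost at least 1 of the 7 genes, against 1 of 9 carcinosarcomas and 0 of 12 sarcomatoid tumours, which allows a share of up to 25%. Over all genes, 11 of the 12 sarcomatoid tumours had no gene lost at all, and replicate 9 had 6.02% of genes lost. Replicate 7 had lost Mad2l2 (-0.73), replicate 19 Shld2 (-0.86) and replicate 21 Mad2l2 and Helb (-0.86 and -0.89), so no member was lost in all 3. Of all genes, 38.6%, 12.6% and 9.52% were lost in these 3 tumours. The carcinosarcoma was replicate 17, with Helb at -0.91. In the sarcomatoid tumours Mad2l2 ran from -0.19 through 0.00 to 0.18 and Shld2 from -0.25 through -0.04 to 0.19. Limma called 2 members in the contrast of sarcomatoid tumours with adenocarcinomas, where 32.4% of all genes were called and 30.4% were called higher. Mad2l2 was higher in sarcomatoid tumours by 0.54 (SE 0.10, adjusted p = 0.000245), and Shld2 by 0.31 (SE 0.11, adjusted p = 0.0264). The Shld2 call rested on replicate 19, without which the difference was 0.06 (adjusted p = 0.765), while without replicate 7 Helb was called as well (0.52, adjusted p = 0.0111) and without replicate 19 Dynll1 was called (0.29, adjusted p = 0.0318). Tumour numbers in the labels tie 2 of the 3 adenocarcinomas to a sarcomatoid tumour, replicate 7 to 6 and replicate 19 to 18, without saying what they share. Mad2l2 was -0.73 in replicate 7 and 0.00 in replicate 6, but -0.01 in both replicates 19 and 18. Shld2 was -0.86 in replicate 19 and -0.03 in replicate 18, but -0.09 in replicate 7 and -0.25 in replicate 6. With the shared number as a random block, both calls remained (Mad2l2 0.54, adjusted p = 0.000219, and Shld2 0.30, adjusted p = 0.0257). The labelled epithelial share was 100% in all adenocarcinomas and 0% in all sarcomatoid tumours, and whether the admixture of normal cells differed between them was not tested.

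Between sarcomatoid tumours and carcinosarcomas of KB1(L1363P)P limma called 0 of 7 members (5.62% of all genes called). An unadjusted p under 0.05 was seen for 1 member, Dynll1 (0.14, SE 0.06, adjusted p = 0.259). The 9 carcinosarcomas were a mixed group, with labelled epithelial shares from 2% through a median of 85% to 98%. Replicate 17, the one with a member loss, was labelled 95%. In KP, sarcomatoid tumours against adenocarcinomas gave 0 of 7 calls and no unadjusted p under 0.05 (1.89% of all genes called), with Mad2l2 at 0.09 (SE 0.08). As in KB1(L1363P)P, none of the 10 KP sarcomatoid tumours had lost any of the 7 genes, and 0% of all genes were lost in each. The 1 sarcomatoid tumour of KB1P had no member loss either. The KP sarcomatoid tumours fill library series 5750, so series and histology cannot be told apart there. The difference between the KB1(L1363P)P and KP contrasts of Mad2l2, tested in the same limma model after the data were seen, was 0.45 (SE 0.13, adjusted p = 0.0517), which missed the threshold, as 2.04% of all genes passed it.

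Most losses took a large part of a chromosome and not the gene alone. The uninterrupted run of lost genes around a member spanned between 0.533 Mb and 131 Mb, with a median of 54 Mb and 838 genes, and 5 of the 81 runs were shorter than 10 Mb. The shortest was at Shld2 in KB2P replicate 22 (14 genes), in a tumour where 74.3% of the placed genes of chromosome 14 were lost, so it was a short stretch of a mostly lost chromosome. In the tumours with a Shld2 loss a median of 89.8% of the placed genes of chromosome 14 were lost, within that run or elsewhere on the chromosome. The runs of Rif1 losses spanned at least 79.0 Mb. In 2 KB1P tumours little of the chromosome was lost beside the member. Trp53bp1 was lost in replicate 16 in a run of 3.98 Mb and 116 genes (segment value -0.48) with 8.11% of the genes of chromosome 2 lost, and Dynll1 in replicate 22 in a run of 8.15 Mb with 8.04% of the genes of chromosome 5 lost. Mad2l2 was lost in KB2P replicate 14 in a run of 8.40 Mb. Helb losses spanned 10.8 Mb to 127 Mb. The plot of run lengths gives all 81.

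**Figure D4:**
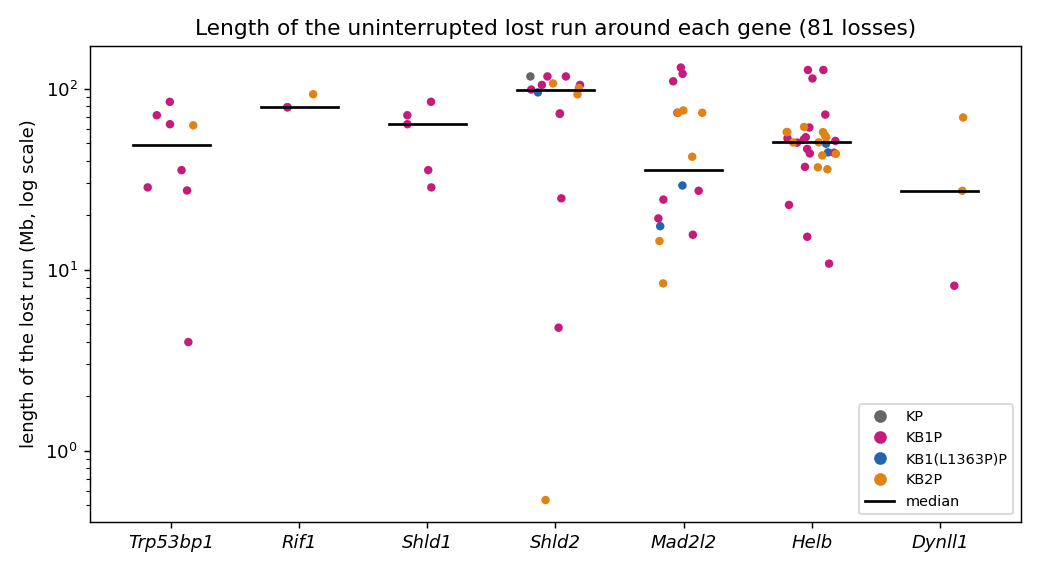
Length in Mb (log axis) of the uninterrupted run of genes with a loss call around each gene, 1 point per loss, coloured by genotype, with the median as a black bar. Of 81 runs, 5 lie below 10 Mb, with Shld2 in a KB2P tumour at 0.533 Mb and Trp53bp1 in a KB1P tumour at 3.98 Mb.

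The tumours that lost a member necessarily overlap at it, so the overlap only shows how closely it is bracketed. The 8 tumours with a Trp53bp1 loss shared 1.52 Mb with 44 placed genes, from AV039307 to Shf, and the chromosome reached its highest KB1P count of 8 losses at other genes, so Trp53bp1 with 7 was not at the peak. Helb with 17 losses stood at the maximum of chromosome 10 in KB1P, a maximum reached by 297 genes, and the 17 tumours had 2.82 Mb and 41 genes in common. In KB2P the maximum of chromosome 10 was 15 losses, at other genes. The Mad2l2 losses of KB2P shared 4.00 Mb with 83 genes, whereas the maximum of chromosome 4 there was 11 losses against 6 at Mad2l2. On chromosome 14 the maximum was 17 in KB1P against 8 at Shld2.

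3 members (Rif1, Trp53bp1 and Shld1) lie on chromosome 2, and their losses followed distance along it. Trp53bp1 and Shld1 had the same segment value in 85 of 98 tumours, and all 5 Shld1 losses came with a Trp53bp1 loss. In KB1P replicate 6 Trp53bp1 was lost and Shld1 gained, and in replicate 16 the short deletion took Trp53bp1 and left Shld1 neutral. Trp53bp1 and Rif1 shared a value in 59 of 98 tumours and were never lost together. In 4 tumours, KB1P replicates 16, 24 and 25 and KB2P replicate 23, Trp53bp1 was lost while Rif1 was gained. Across the tumours the segment values of Trp53bp1 correlated at 0.61 with Shld1 and at 0.08 with Rif1 (Pearson, n = 98), given as a description since genes of a chromosome share segments.

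**Figure D5:**
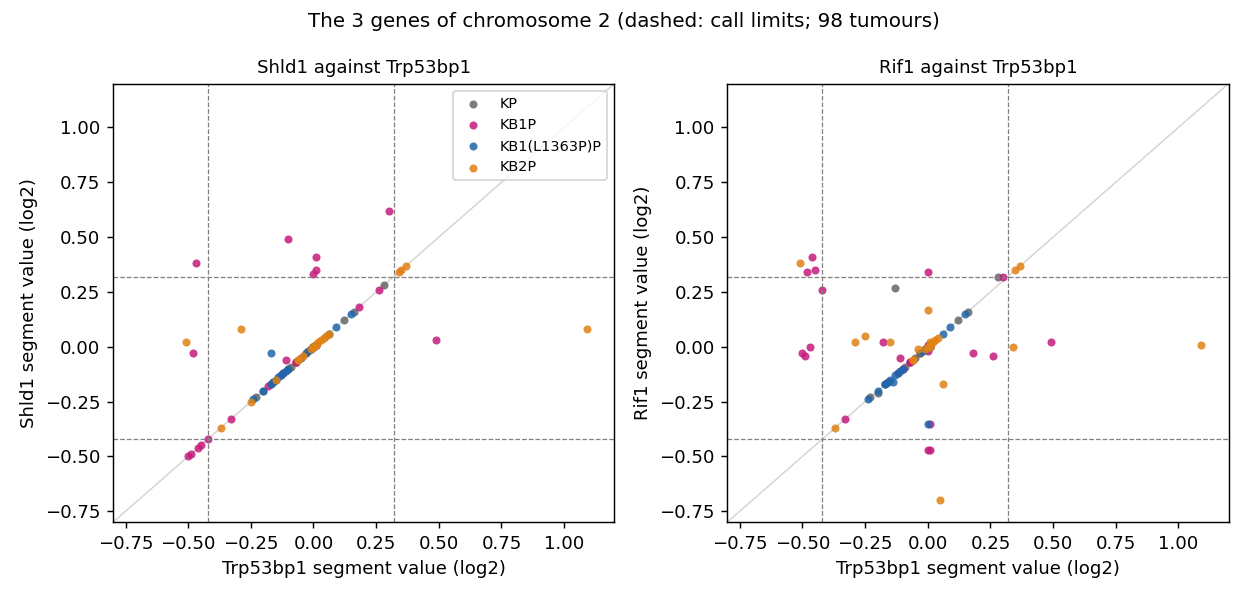
Segment values (log2) of Shld1 (left) and Rif1 (right) against Trp53bp1 in 98 tumours, coloured by genotype; dashed lines are the call limits and the grey line marks equal values. Most points lie on the grey line on the left (85 of 98 tumours with equal values), while on the right 4 tumours lie in the upper left corner, with Trp53bp1 lost and Rif1 gained.

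Losses of members on different chromosomes also met in the same tumour. Mad2l2 and Helb were both lost in 11 tumours, 7 of them KB1P, 3 KB2P and 1 KB1(L1363P)P. The KB2P tumours among them include replicates 10 and 12, the pair with near-identical profiles. Singly, Mad2l2 was lost in 8 and Helb in 17 of 31 KB1P tumours, and in 6 and 12 of 25 KB2P tumours. Whether losses met more often than such single counts imply was not tested. Shld2 and Helb were both lost in 8 tumours and Trp53bp1 and Helb in 6. Helb was the sole member lost in 3 KB1P, 7 KB2P and 1 KB1(L1363P)P tumours. A loss of Trp53bp1, Rif1 or a shieldin gene was present in 18 of 31 KB1P tumours (58.1%, 39.1% to 75.5%), 10 of 25 KB2P tumours (40.0%, 21.1% to 61.3%), 3 of 24 KB1(L1363P)P tumours and 2 of 18 KP tumours. Over all genes, 18.3% of calls in KB1P and 19.1% in KB2P were losses. No matching share for a set of genes was computed.

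The highest copy number of a member was the Helb gain in KB2P replicate 8, where 7 placed genes over 0.779 Mb shared the value of 2.43: Grip1, 2 antisense transcripts of it, Helb, Irak3, Tmbim4 and Llph. The other 2 Helb gains, also in KB2P, were 0.40 and 0.41. The Dynll1 gains of KB2P replicates 10 and 12 covered 1.44 Mb and 1.55 Mb at their level, inside 42.5 Mb of gained genes. In KB1P replicate 23 Dynll1 and Shld2 were both gained to a score of 4 (0.82 at each).

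Of 30 further genes of the pathway listed beside the members, 29 were measured. Counts in these lists are to be read beside the 13.5% of all genes that limma called for KB1P minus KP, 12.0% for KB2P minus KP, 1.36% for KB1P minus KB2P and 13.5% for KB1(L1363P)P minus KB1P. Among adenocarcinomas alone limma called no gene of any of the 4 lists in the 6 contrasts. Over all tumours, limma called 2 of the 10 effectors of fill-in and end joining for KB1P minus KP: Prim1, the catalytic primase subunit, was lower by -0.31 (SE 0.08, adjusted p = 0.00764) and Prim2, its partner, was higher by 0.22 (SE 0.08, adjusted p = 0.0396). Of the 9 recruitment genes, 2 were lower in KB1P than in KP, the ubiquitin ligase Rnf168 (-0.21, SE 0.07, adjusted p = 0.0340) and the ubiquitin-conjugating enzyme Ube2n (-0.27, SE 0.09, adjusted p = 0.0308). In KB2P minus KP, 3 of the 9 were called, the histone H2ax (0.36) and the methyltransferase Kmt5b (0.23) higher and Ube2n lower (-0.26). Rnf168 was also lower in KB1P than in KB2P (-0.25, SE 0.06, adjusted p = 0.0204), with loss calls in 13 of 31 and 1 of 25 tumours. Of the 8 resection genes, 1 was called in KB1P minus KP, the nuclease gene Mre11a, higher in KB1P than in KP by 0.42 (SE 0.14, adjusted p = 0.0379). Neither of the 2 genes for release and inhibition, Trip13 and Nudt16l1, was called between genotypes by segment value. Trip13 was lost in 9 of 25 KB2P against 0 of 24 KB1(L1363P)P tumours (Fisher's adjusted p = 0.0395, with 5.36% of all genes called). By loss, Fisher's test also called Prim1, Rnf168 and Ube2n for KB1P against KP (4.68% of all genes called). It called the loss of Prim1 for KB1(L1363P)P against KB1P as well (3.63%). For KB1(L1363P)P minus KB1P, limma called 3 effectors, Prim1 higher (0.25) and Prim2 (-0.23) and Ten1 (-0.29) lower, 1 resection gene, Mre11a (-0.39), and no recruitment gene. For KB1(L1363P)P minus KB2P it called H2ax lower (12.8% of all genes called). By gain, Fisher's test called Prim2, Asf1a and Dna2 for KB1P against KP (12.4%) and Asf1a for KB2P against KP (7.62%). Gains were called as rarer in KB1(L1363P)P than in KB1P at Ten1, Prim2, Dclre1c, Asf1a, Kmt5a and Dna2 (21.2%), and than in KB2P at Prim2 and Asf1a (11.4%).

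Of the pathway's other chromosome 10 genes, Prim1 and Ube2n mostly shared the calls of Helb, and Asf1a and Dna2 were lost with it in fewer tumours. Prim1 lies 7.93 Mb from Helb and Ube2n 24.6 Mb, and all 17 KB1P tumours that lost Helb had also lost Prim1, while 15 of them had lost Ube2n. Over all tumours Helb and Prim1 had the same segment value in 92 of 98. Asf1a and Dna2 lie on the other part of that chromosome. Each was lost in 6 KB1P tumours, all of which had also lost Helb. Each was gained in 11 KB1P tumours, while no KB1P tumour had a Helb gain. On chromosome 5 the recruitment gene Kmt5a, 9.14 Mb from Dynll1, was gained in all 10 KB1P tumours with a Dynll1 gain, and Brca2, 35.2 Mb away, in 9 of them.

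The segment values of the 7 members were also set against all genes on other chromosomes. The highest Pearson correlation over 98 tumours was 0.74 for Dynll1 with Ltv1, and 0.60 for Helb with Lmx1a. For the other 5 it lay between 0.37 (Shld1 with Cdh9) and 0.45 (Shld2 with Lrp11, Mad2l2 with Sirt1), with 0.43 for Trp53bp1 with BC055402 and for Rif1 with Krtap5-1. A few tumours with high values can set such correlations, and they are given as a description without a test. The number of other genes with a member's segment value in all 98 tumours was 51 for Dynll1, 35 for Mad2l2, 27 for Shld1, 23 for Trp53bp1, 14 for Rif1, 7 for Helb and 0 for Shld2.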

How the data were processed

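Genomic DNA of 98 tumours and 3 spleens was sequenced and reads were counted in 20-kb bins. BWA alignment and a correction of bin counts for GC content and mappability are described in the labels' protocols. The submitters' processing notes list cutadapt 2.5, BWA 0.7.17, SAMtools 1.10, Picard and the build mm10. What the ratios are relative to, how they were segmented and how bins became genes was not given in the sources used here. The authors deposited log2 ratios, log2 segment values and a copy score for each gene symbol. Raising 2 to the deposited segment value, doubling and rounding gave the deposited score in 99.9919% of all cells and 100% of the members'.

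The members and gene lists were chosen with earlier results of these data known. Segment values were compared between genotypes, between adenocarcinomas and between histologies with limma 3.58.1 (R 4.3.3), and calls with 2-sided Fisher's exact tests (SciPy 1.17.1). P-values were adjusted by Benjamini-Hochberg over all 43513 symbols, with a threshold of 0.05. Since separate animals are not stated for all tumours, p-values cover only the spread among the tumours sequenced. Shares have exact Clopper-Pearson 95% intervals, and for a count of 0 the limit is 3 divided by the number of tumours. Of the symbols, 32657 were placed on GRCm38.p6 by symbol and 30 by synonym, and 10826 were left out of runs. Runs ignore unplaced genes. From each further list, at most 2 called genes with the largest difference per contrast were to be named. Where 3 were called all 3 are named, and genes called by Fisher's test were named after their values were seen. Alternatives were log2 ratios, centring, other call limits, library series, doubtful labels, tumours with related numbers, robust variances and other sets of tumours. The 3 settings for shared tumour numbers between histologies, leaving out KB2P replicate 8 or 1 of the near-identical KB2P tumours, the adenocarcinomas of series 5289 alone, and the test of the difference between histology contrasts were added after the data were seen. The limma and Fisher steps were tested on simulated data.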

Additional observations from a re-analysis of the deposited data

Results flagged for a closer look

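In groups of 4 to 10 tumours of 1 genotype and histology, 21 combinations of a gene and a group were examined for a tumour set apart from the rest by Dixon's 95% limit, and 6 were found. The usual rate of about 1 in 20 assumes independent, normally distributed values. Here Trp53bp1 and Shld1 had the same value in all 18 KP tumours and in 23 of 24 KB1(L1363P)P tumours. The 6 are therefore not compared with that rate. Among the 6 KP adenocarcinomas, replicate 8 had a Shld2 segment value of -0.43 against a median of 0.00. Among the 10 KP sarcomatoid tumours, replicate 13 had a Rif1 value of 0.27 (median -0.04) and replicate 12 a Shld2 value of 0.22 (median -0.01). Among the 9 KB1(L1363P)P carcinosarcomas, replicate 17 had a Helb value of -0.91 (median -0.01). In the same group replicate 23 stood apart at both Mad2l2, with -0.36 (median -0.04), and Dynll1, with -0.37 (median 0.00).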

How the results depend on the processing

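Counts of members called by segment value were within 1.5 times the reported count in 47 of 54 comparisons between genotypes under an alternative, in all 51 between adenocarcinomas and all 26 between histologies. A count of 0 that stayed 0 was included as unchanged. Between adenocarcinomas every reported count was 0, with at most 1.03% of all genes called, so the agreement there says little. For KB1(L1363P)P minus KB1P the count rose from 0 to 1 (Helb) after centring on the autosomal median, within series 5289, with only the 2 genotypes in the fit and without KB2P replicate 8. For KB1P minus KP it fell to 0 within series 5289 and with series as a term. For KB2P minus KP it was 1 without KB2P replicate 8. With single tumours or doubtful labels left out, it ranged from 0 to 1 for KB1(L1363P)P minus KB1P and for KB2P minus KP, and from 2 to 3 for sarcomatoid tumours against adenocarcinomas of KB1(L1363P)P.

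By loss frequency, 29 of 39 counts held and by gain frequency 32 of 39. The loss count for KB1(L1363P)P against KB1P was 0 at limits of 0.2 and 0.1, among adenocarcinomas and within series 5289. The loss count for KB1P against KP was 0 at 0.1, among adenocarcinomas and within series 5289, and that for KB2P against KP was 0 at 0.1 and among adenocarcinomas. The loss count for KB1(L1363P)P against KB2P was 1 at 0.1. This was Rif1 and not Helb, with values of -0.1 or lower in 12 of 24 KB1(L1363P)P and 3 of 25 KB2P tumours. Such values were thus more frequent in KB1(L1363P)P, opposite to the Helb losses. The gain count for KB1(L1363P)P against KB1P was 3 at 0.2 and 0 at 0.1, after centring, among adenocarcinomas, within series 5289 and without KB1PM titles and the conflicting label. The gain count for KB1(L1363P)P against KB2P was 1 at 0.2. Tumours with any member lost numbered 4 (at -0.2), 11 (at -0.1) and 1 (by log2 ratio) in KP, 27 in KB1P at -0.1, and 9 (at -0.2) and 20 (at -0.1) in KB1(L1363P)P. Subsets hold fewer tumours; the cause of the other changes was not tested. The depth behind the values is unknown, and loss of 1 copy in a minority of cells falls short of the call limit. Between genotypes, no paired analysis was possible because replicate numbers only name tumours. Within KB1(L1363P)P, 3 tumour numbers are shared, and with the number as a random block (replicate block, consensus correlation 0.10) 2 members were called between sarcomatoid tumours and adenocarcinomas, as without it. With only the first tumour of a number 1 adenocarcinoma was left, whose spread is assumed to match the other groups, and 3 members were called (Mad2l2, Helb and Dynll1), Shld2 not (0.07, adjusted p = 0.984).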
